A study of Mus musculus with 8 samples.

Results

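Gpr174, Serpinb6b, Uaca and Phxr4 are 4 of the 18193 genes that a single-gene probe set names on these arrays, and all of their probe sets, 5 of 45101, are described here. They were picked because, at the brightest probe set of each gene, all 6 knockout arrays read below both WT arrays. That choice was made from the values themselves, so the differences of the knockouts from WT are given as a description and carry no test. The cells were common lymphoid progenitors without surface LY6D, which have B, T and other lymphoid potential, sorted from bone marrow by FACS as lineage-negative, FLT3-positive and CD127-positive. The 3 groups were E2A knockout (E2A-KO, 4 arrays), HEB knockout (HEB-KO, 2 arrays) and wild type (WT, 2 arrays), all from C57bl/6 mice of 10 to 13 weeks. Each array is labelled a biological replicate, and several marrows were pooled in a sort, so an array does not stand for a single mouse. The labels do not say how either allele was made, nor whether the knockout marrow was that of the animals themselves or of transplanted hosts.

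E2A (encoded by Tcf3) and HEB (encoded by Tcf12) belong to the E proteins, helix-loop-helix factors whose dimers recognise E-boxes, DNA sequences of the form CANNTG. They are known for setting the lymphoid programme of bone marrow progenitors. Gpr174 encodes a G-protein-coupled receptor for lysophosphatidylserine, a signalling lipid, and is known from lymphocytes. Serpinb6b encodes an intracellular serine protease inhibitor of clade B, known in the mouse as an inhibitor of granzyme A. Uaca (also called nucling) encodes an ankyrin-repeat and coiled-coil protein that was described with the Apaf1 apoptosome, the complex that activates caspase 9. Phxr4 (per-hexamer repeat gene 4) is annotated by RefSeq as a lncRNA, and no function is given for it here.

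The 4 genes lie on 3 chromosomes of GRCm38.p6, in the RefSeq annotation. Gpr174 is on chromosome X (107255878 to 107296771), 150.9 kb from P2ry10, another lysophosphatidylserine receptor gene. Serpinb6b is on chromosome 13 (32956811 to 32979067), in the clade B serpin cluster with Serpinb9 (32997061 to 33017955) and Serpinb6a (33917918 to 34002794). Uaca (60793206 to 60880431) and Phxr4 (13431361 to 13432751) are both on chromosome 9, which also holds Tcf12 (71844252 to 72111893), the gene that encodes HEB. Uaca is 10.96 Mb and Phxr4 58.4 Mb from Tcf12.

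The promoter windows of the 4 genes, from 250 bases before to 50 bases after the annotated start, are shown because the genes were lower together when an E-box-binding factor was missing. RefSeq sequence of GRCm38.p6 matched all 4 genes, all on the plus strand. For Gpr174, Serpinb6b and Uaca the start used lies inside the gene span given above, so a transcript that begins further upstream has another promoter. Each window is in lower case, with every CANNTG match in capitals (the motif reads the same on both strands).
Gpr174, chrX:107284096-107284395: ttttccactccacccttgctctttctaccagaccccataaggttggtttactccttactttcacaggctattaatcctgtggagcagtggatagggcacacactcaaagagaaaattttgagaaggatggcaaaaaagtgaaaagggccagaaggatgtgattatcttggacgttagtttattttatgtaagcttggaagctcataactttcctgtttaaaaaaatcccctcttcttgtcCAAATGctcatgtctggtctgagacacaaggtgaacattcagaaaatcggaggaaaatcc
Serpinb6b, chr13:32965011-32965310: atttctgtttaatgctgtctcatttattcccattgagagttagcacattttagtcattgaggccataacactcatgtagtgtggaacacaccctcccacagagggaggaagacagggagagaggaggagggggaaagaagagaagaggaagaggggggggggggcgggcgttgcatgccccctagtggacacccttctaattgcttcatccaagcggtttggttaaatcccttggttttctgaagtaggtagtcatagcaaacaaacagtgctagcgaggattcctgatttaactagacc
Uaca, chr9:60794192-60794491: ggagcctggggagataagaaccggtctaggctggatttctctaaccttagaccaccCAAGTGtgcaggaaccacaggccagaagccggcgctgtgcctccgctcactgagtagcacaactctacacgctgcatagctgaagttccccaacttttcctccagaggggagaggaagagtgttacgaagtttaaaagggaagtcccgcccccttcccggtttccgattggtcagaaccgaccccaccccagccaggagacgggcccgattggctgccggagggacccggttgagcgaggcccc
Phxr4, chr9:13431111-13431410: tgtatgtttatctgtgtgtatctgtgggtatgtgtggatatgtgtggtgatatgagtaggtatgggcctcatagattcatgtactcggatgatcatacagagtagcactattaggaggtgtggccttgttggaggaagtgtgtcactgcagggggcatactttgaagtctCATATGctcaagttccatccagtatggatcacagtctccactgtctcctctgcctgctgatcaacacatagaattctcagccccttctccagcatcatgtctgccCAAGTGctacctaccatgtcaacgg

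The general E-box CANNTG occurred in the windows of 3 of the 4 genes. Gpr174 held 1 match, CAAATG, which began 10 bases before the start. Uaca held 1 match, CAAGTG, 194 bases before the start. Phxr4 held 2, CATATG at 80 bases before the start and CAAGTG at 25 bases after it. Serpinb6b held 0. Of 32851 promoter windows of the same length, 72.31% held CANNTG, so 3 of 4 is close to the share over all promoters. The forms CAGGTG (searched on both strands) and CAGCTG, which E proteins are known to prefer, were in 0 of the 4 windows, against 20.21% and 16.3% of all windows. Both forms also count as CANNTG, and a missing match says only that these letters are not in this window. The windows differed in base composition. Uaca's was 59.7% G and C with 15 CpG, while those of Gpr174 (41.0%), Phxr4 (47.0%) and Serpinb6b (48.3%) lay below the median of all windows (52.7%) and held 2, 2 and 4 CpG against a median of 7.

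Across the 8 arrays, median intensity was 14.14 to 15.41 (3.82 to 3.95 on the log2 scale). The number of arrays limits precision, and so do the dim signals of these genes. The hybridization controls, which are added at a fixed amount, averaged 11.5 to 12.6 on E2A-KO arrays, 10.3 and 11.6 on HEB-KO arrays and 11.4 and 10.3 on WT arrays. The 3′ minus 5′ difference of the actin control, a sign of RNA length, was 3.86 to 4.78 on E2A-KO arrays, 3.37 and 3.58 on HEB-KO arrays and 4.45 and 3.84 on WT arrays (log2). With the hybridization controls as covariate, the Uaca difference of E2A-KO from WT was -1.96. The targeted genes were lowest in the groups labelled as lacking them. Tcf3, at its brightest probe set, read 3.71 to 4.28 (log2 intensity) on E2A-KO arrays, 8.57 and 8.44 on HEB-KO arrays and 7.76 and 7.98 on WT arrays. Tcf12 read 8.52 to 8.64 on E2A-KO arrays, 7.10 and 6.49 on HEB-KO arrays and 8.85 and 8.76 on WT arrays. Of 6 lymphoid progenitor markers, 5 (Flt3, Il7r, Kit, Cd93 and Dntt) lay above the array median on all 8 arrays and Rag1 did not on all. The summed intensity of these 6 markers was 7842 to 10856 on E2A-KO arrays, 17129 and 17270 on HEB-KO arrays and 17618 and 19341 on WT arrays. It was thus lower on every knockout array, as were the genes described here at their brightest probe sets. The HEB-KO sums lay close to WT replicate 1, however. The median difference of the 6 markers from WT was -1.71 in E2A-KO and -0.10 in HEB-KO cells (-0.05 and 0.09 over all tested genes). The part of these markers in the results was not tested. The summed B-lineage markers, with Ly6d among them, did not follow that order, at 241 to 355 on E2A-KO, 301 and 617 on HEB-KO and 213 and 988 on WT arrays. Summed granulocyte markers were 2292 to 4565 on E2A-KO, 3902 and 5595 on HEB-KO and 1923 and 2712 on WT arrays, with both HEB-KO arrays above both WT arrays. The median difference of the 7 granulocyte markers from WT was 0.15 in E2A-KO and 2.87 in HEB-KO cells. Between the knockouts it was -2.72 (lower in E2A-KO than in HEB-KO cells), against -0.16 over all tested genes. Summed monocyte and macrophage markers were 287 to 394 on E2A-KO, 605 and 1021 on HEB-KO and 646 and 973 on WT arrays, lowest on the E2A-KO arrays, and the macrophage marker Adgre1 lay below the array median on all 8. The part of these cells in the results was not tested.

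All 4 genes were dim. At the brightest probe sets the highest of all values was 6.33 (Uaca, WT replicate 2), and that probe set then exceeded 77.4% of the probe sets on its array. A gene was tested if its brightest probe set lay above the array median on at least 2 arrays, and all 4 genes passed. Gpr174 passed through both WT arrays alone, and Serpinb6b through both WT arrays and 1 HEB-KO array, so the filter itself asked for a high level in WT. The table holds no detection calls. Where a group lay below the array median, its difference is one of readings near the floor and no fold is given. In sorted bulk cells, fewer cells that carry a transcript and less transcript in each cell cannot be told apart.

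Gpr174 read lower on every knockout array than on either WT array at its brightest probe set, and not at its other. At its brightest probe set, 1447792_x_at, it read 2.98, 2.68, 3.49 and 2.35 (log2 intensity) on the 4 E2A-KO arrays. On the HEB-KO arrays it read 3.30 and 3.22, and on the WT arrays 4.84 and 5.23. All 6 knockout readings lay below the array median and both WT readings above it, and the 2 knockouts overlapped. The means were 2.87 ± 0.48 in E2A-KO (SD, n = 4), 3.26 ± 0.06 in HEB-KO (n = 2) and 5.04 ± 0.28 in WT cells (n = 2). This is a difference from WT of -2.16 (SE 0.31) in E2A-KO and of -1.77 (SE 0.36) in HEB-KO cells, on the log2 scale. The name ending _x_at marks an Affymetrix probe set that can bind transcripts of more than 1 gene.

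The other Gpr174 probe set, 1440900_at, did not show the same order. It read 2.74, 2.75, 2.66 and 3.08 on the E2A-KO arrays, 3.58 and 3.81 on the HEB-KO arrays, and 2.69 and 4.09 on the WT arrays. The WT arrays lay on either side of the HEB-KO arrays, and WT replicate 1 lay within the E2A-KO range. Its mean difference from WT was -0.58 (SE 0.35) in E2A-KO and 0.30 (SE 0.40) in HEB-KO cells, so HEB-KO cells were higher here by a value smaller than its error. Only WT replicate 2 read above its array median, and the probe set did not pass the filter. With both probe sets averaged, the Gpr174 differences were -1.37 in E2A-KO and -0.74 in HEB-KO cells.

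Because Gpr174 is X-linked, Xist, the RNA that silences one X chromosome in females, and the Y-linked gene Eif2s3y were read beside it. Xist was high on E2A-KO replicates 2 and 4 (11.6 and 11.1), on both HEB-KO arrays (9.88 and 10.8) and on both WT arrays (11.2 and 9.63), and low on E2A-KO replicates 1 and 3 (5.02 and 4.64). Eif2s3y was low on E2A-KO replicates 2 and 4 (3.27 and 2.63) and high on E2A-KO replicates 1 and 3 (8.34 and 8.21), on both HEB-KO arrays (7.91 and 6.38) and on both WT arrays (7.92 and 8.19). The HEB-KO and WT arrays thus carried both transcripts, while each E2A-KO array carried mainly one of them. On the 2 E2A-KO arrays with high Xist, Gpr174 read 2.68 and 2.35, and on the 2 with low Xist 2.98 and 3.49. The rule that chose Gpr174 already put all of these below WT, so they do not bear on a part of sex in the difference, which was not tested.

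Serpinb6b followed the order E2A-KO, HEB-KO, WT. Its 1 probe set read 3.30, 3.78, 3.15 and 3.35 on the E2A-KO arrays. It read 4.44 and 3.82 on the HEB-KO arrays, and 5.59 and 5.52 on the WT arrays. No 2 genotypes overlapped, although the nearest E2A-KO and HEB-KO arrays (3.78 and 3.82) almost met. The means were 3.40 ± 0.27 in E2A-KO, 4.13 ± 0.44 in HEB-KO and 5.55 ± 0.05 in WT cells. The difference from WT was -2.16 (SE 0.26) in E2A-KO and -1.42 (SE 0.30) in HEB-KO cells.

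Uaca was low in E2A-KO cells and closer to WT in HEB-KO cells. Its 1 probe set read 3.63, 3.54, 3.55 and 3.29 on the E2A-KO arrays, 5.05 and 5.02 on the HEB-KO arrays, and 5.39 and 6.33 on the WT arrays. The E2A-KO arrays all lay below their array medians, and both HEB-KO arrays above. The 2 WT arrays differed by more from each other than WT replicate 1 did from HEB-KO. The difference from WT was -2.36 in E2A-KO (SE 0.27) and -0.82 in HEB-KO cells (1.77-fold lower, SE 0.32). Without WT replicate 2 the HEB-KO difference was -0.35, and without WT replicate 1 it was -1.29, so its size rests on the WT array used.

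Phxr4 was lower by similar amounts in both knockouts. It read 4.67, 4.11, 4.61 and 3.68 on the E2A-KO arrays, 4.22 and 3.95 on the HEB-KO arrays, and 5.73 and 5.22 on the WT arrays. The HEB-KO readings lay inside the E2A-KO range. Phxr4 was the member with most knockout readings above the array median, 5 of 6, and E2A-KO replicate 4 was the exception. The difference from WT was -1.21 in E2A-KO (2.31-fold lower, SE 0.32) and -1.39 in HEB-KO cells (2.62-fold lower, SE 0.37). Both knockouts are set against the same 2 WT arrays for every gene, so the 2 differences of a gene share the error of those arrays.

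**Figure D1:**
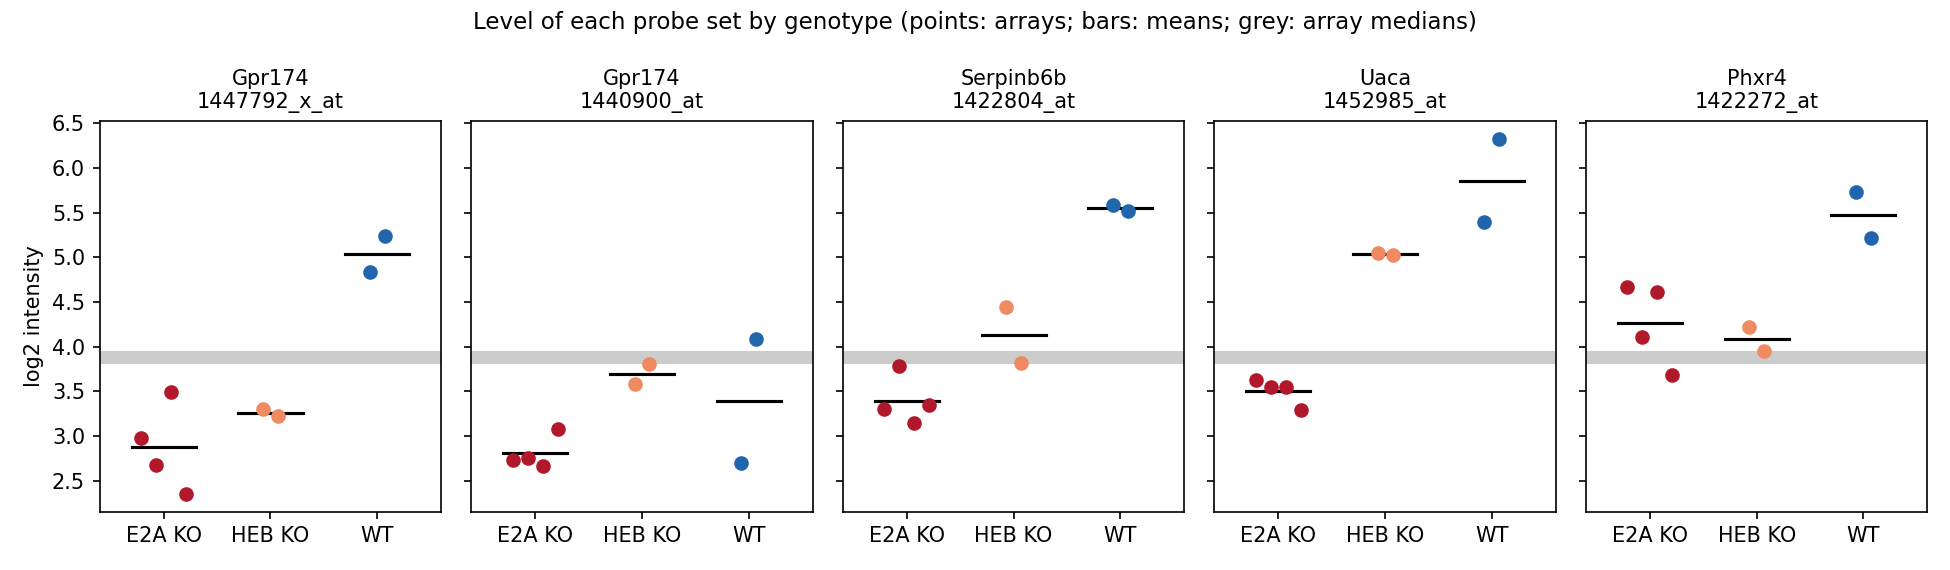
Level of each of the 5 probe sets (log2 intensity, vertical axis) by genotype, with 1 point per array, a bar at each group mean and a grey band over the 8 array medians (3.82 to 3.95). In 4 panels every knockout point lies below both WT points, and in the second Gpr174 panel, 1440900_at, WT replicate 1 (2.69) lies among the E2A-KO points.

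The order of all tested genes by the rule places the 4 genes. The gap was taken as the lower WT array minus the highest knockout array, at the brightest probe set. Of 11957 tested genes, 451 had a gap above 0 (3.77%), from which the 4 were picked. That number was 1022 without HEB-KO replicate 1, 1500 without WT replicate 1 and 1212 without WT replicate 2. With no filter, 2.7% of all probe sets other than controls met the rule. Of the 5 probe sets described here 4 met it, which the choice of the genes by this rule fixed in advance. Gpr174 (gap 1.35) and Serpinb6b (1.07) stood first and second, Phxr4 (0.55) at rank 18 and Uaca (0.34) at rank 58. With both of its probe sets averaged, the gap of Gpr174 was 0.25, the smallest of the 4. The other genes at the top were the interferon-induced genes Usp18 (1.04) and Rtp4 (0.91), and the proteoglycan gene Sdc4 (0.91). Phxr4 stood between Hmga2 (0.56), a chromatin protein of fetal and stem cells, and Sfi1 (0.54). Uaca stood between Zfp729a (0.34) and Pde4b (0.33), a phosphodiesterase that degrades cyclic AMP. At the limit of the rule itself, the gene just inside was Zfp445 (1.39e-04) and the gene just outside Marchf7 (-0.0012).

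**Figure D2:**
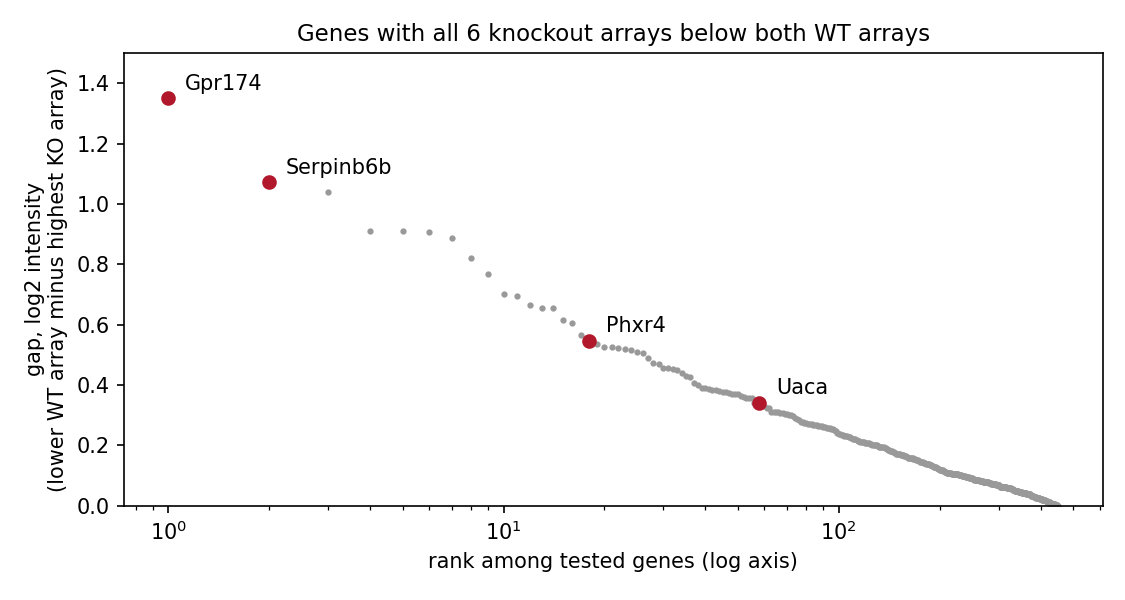
Gap between the lower WT array and the highest knockout array (log2 intensity, vertical axis) for the 451 tested genes where it was above 0, by rank (log axis). The red points are Gpr174 (1.35), Serpinb6b (1.07), Phxr4 (0.55) and Uaca (0.34), which were chosen by this measure, and grey points are the other genes.

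The comparison of E2A-KO with HEB-KO cells asks whether the loss of one factor left a lower level than the loss of the other. The size of this difference does not use the WT readings. The WT arrays were in the same limma fit, however, so they enter its SE, p-values and intervals. They also entered the filter, which Gpr174 passed through both WT arrays alone. The choice of the genes used the knockout readings too, so this comparison is not independent of that choice. In a limma fit over all tested genes, 14 of 11957 passed at a Benjamini-Hochberg adjusted p under 0.05 (0.117%), 12 of them lower in E2A-KO cells (0.1%), while cyclic loess scaling gave 7 lower of 10. None of the 4 genes passed (0 of 4). At an unadjusted p under 0.05 there were 2 of 4, Uaca and Serpinb6b, against 16.5% of all tested genes. The count of 14 moved with single arrays. It was 1 without E2A-KO replicate 1 or either HEB-KO array, 2 without E2A-KO replicate 2, 4 without E2A-KO replicate 4, and 6 without either WT array. The median difference of all tested genes was -0.16, which cyclic loess moved by 0.13.

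Uaca had the largest difference of the 4 between the knockouts. It was -1.53 on the log2 scale (lower in E2A-KO than in HEB-KO cells, 95% interval -2.16 to -0.91), rank 184 of 11957 by size, with a limma adjusted p = 0.0847. Under the alternative settings its adjusted p ran from 0.0475, with array weights, to 0.740. Serpinb6b differed by -0.74 (95% interval -1.33 to -0.15, limma adjusted p = 0.227). All 4 E2A-KO readings of Uaca and of Serpinb6b lay below the array median, as did HEB-KO replicate 2 of Serpinb6b. The sizes of these 2 differences thus rest in part on readings near the floor. For both, all 4 E2A-KO arrays lay below both HEB-KO arrays, as did those of 21.6% of tested genes (29.4% had these arrays apart in either direction).

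Gpr174 and Phxr4 did not pass between the knockouts. Gpr174 differed by -0.39 (95% interval -1.10 to 0.33, limma adjusted p = 0.542), an interval that spans 0. All 6 of its knockout readings lay below the array median, so readings near the floor are compared. The lack of a call does not show that the knockouts had equal levels. Its probe set 1440900_at lay outside the tested set, with all 6 knockout readings also below the array median. That probe set differed by -0.89 (95% interval -1.69 to -0.08, from a fit of all probe sets, with no adjusted p). Its E2A-KO arrays all lay below both HEB-KO arrays, as did those of 21.6% of tested genes, and here too readings near the floor are compared. Phxr4 differed by 0.18 (95% interval -0.54 to 0.91, limma adjusted p = 0.780), the 1 member with a higher mean in E2A-KO cells. Over the 6 knockout arrays, Pearson correlations between pairs of the 4 genes ran from -0.27 (Serpinb6b and Phxr4) to 0.80 (Serpinb6b and Uaca). These points share arrays and 2 genotypes, so the values describe these arrays.

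**Figure D3:**
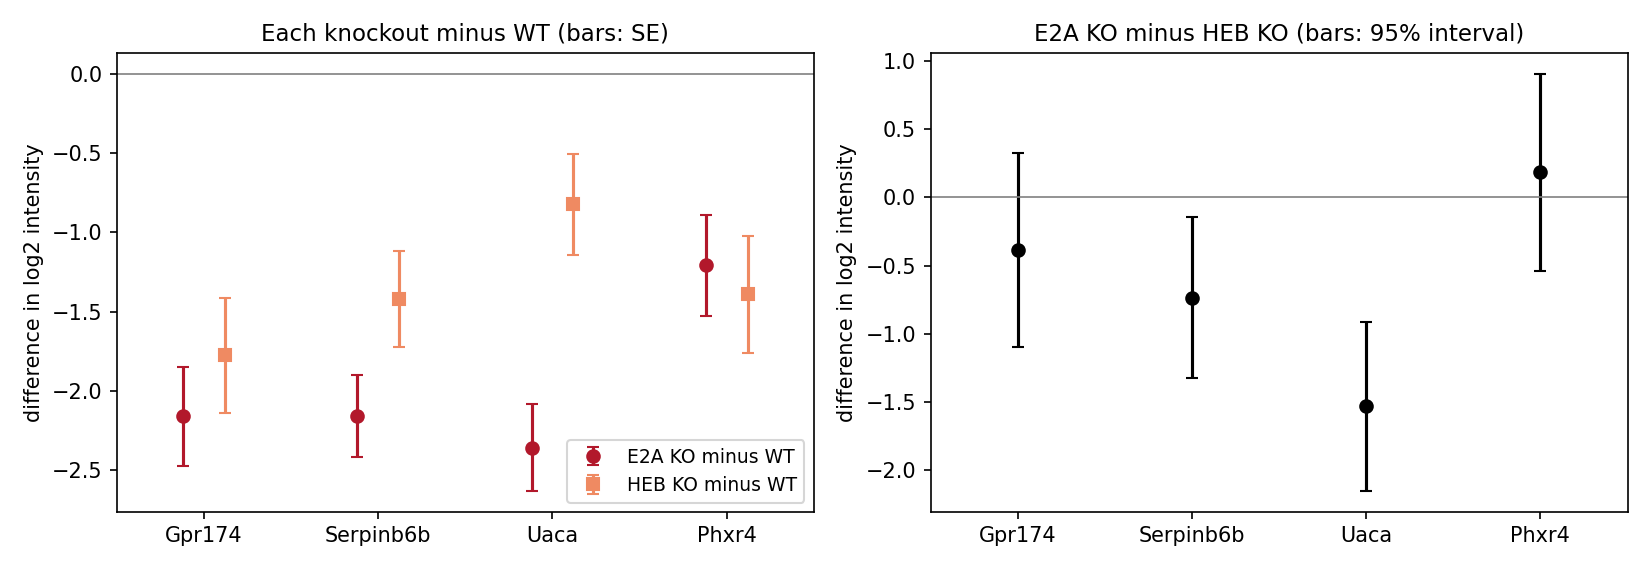
Differences in log2 intensity at the brightest probe set of each gene, on the left for E2A-KO minus WT and HEB-KO minus WT (points, with SE as bars, no test because the genes were chosen on these values), on the right for E2A-KO minus HEB-KO (points, with the 95% interval as bars). On the right the intervals of Gpr174 and Phxr4 span 0, and those of Serpinb6b (-1.33 to -0.15) and Uaca (-2.16 to -0.91) do not, although neither passed after adjustment over all genes.

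Relatives of Gpr174 were then read from a list of 23 lysophospholipid and P2Y-like receptor genes, of which 21 were on the array and 15 were tested. None passed in either knockout against WT (limma), where 0.443% of all genes did in E2A-KO and 0% in HEB-KO cells (0 genes, with 312 at an unadjusted p under 0.05). At an unadjusted p under 0.05, 5 were lower and 1 higher in E2A-KO cells, where 13.4% of all tested genes reached it, and 0 of 15 did in HEB-KO cells, where 2.61% of all did. The list's median difference was -0.40 in E2A-KO (-0.05 over all tested genes) and 0.07 in HEB-KO cells (0.09 over all). P2ry14, a receptor for UDP-sugars, read 5.63, 5.86, 6.38 and 6.97 on E2A-KO, 7.09 and 7.53 on HEB-KO, and 7.60 and 7.96 on WT arrays. It was lowest in E2A-KO cells and just below WT in HEB-KO cells, with differences from WT of -1.57 (SE 0.37, limma adjusted p = 0.117) and -0.47 (SE 0.43). P2ry13, an ADP receptor, differed by -0.92 in E2A-KO (SE 0.24, limma adjusted p = 0.147) and -0.46 in HEB-KO cells. P2ry10, the neighbour of Gpr174 on chromosome X which was chosen with its values in view, had readings of 4.36, 2.83, 3.43 and 5.56 on E2A-KO, 3.66 and 3.62 on HEB-KO, and 4.26 and 4.63 on WT arrays. Its E2A-KO arrays spread on either side of WT.

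Enzymes that make or break down lysophosphatidylserine and its precursor showed no call, 0 of 7 tested in each knockout against WT (limma). Of all tested genes 0.443% passed in E2A-KO and 0% in HEB-KO cells, so 0 of 7 is near that share. At an unadjusted p under 0.05 there were also 0 of 7, against 13.4% and 2.61% of all tested genes. Ptdss1, a phosphatidylserine synthase, had the smallest p of these enzymes and differed by 0.45 in E2A-KO cells (SE 0.22, limma adjusted p = 0.407). Abhd12, a lysophosphatidylserine lipase, differed by 0.39 in HEB-KO cells (SE 0.23). Of 17 genes of G-protein and cyclic AMP signalling, all tested, 1 fell in E2A-KO cells against WT (limma, where 0.443% of all tested genes passed). In HEB-KO cells 0 passed (0% of all). At an unadjusted p under 0.05 the list held the same 1 of 17 in E2A-KO (13.4% of all tested genes) and 0 in HEB-KO cells (2.61%). The 1 was Pde4b, the gene next to Uaca in the order of gaps. It read 6.74, 6.38, 7.0 and 6.37 on E2A-KO, 7.71 and 7.69 on HEB-KO, and 8.05 and 8.05 on WT arrays. Its difference from WT was -1.43 in E2A-KO (SE 0.24, limma adjusted p = 0.0493) and -0.35 in HEB-KO cells (SE 0.27). The Pde4b call was lost without either WT array (adjusted p = 0.282 without replicate 1, 0.334 without replicate 2), either HEB-KO array, or E2A-KO replicate 1, 2 or 4, and it held in 6 of 20 alternatives in all, with a negative difference in all 20. With all its probe sets averaged, the Pde4b difference was -0.69 (limma adjusted p = 0.284). With the replicate block the limma adjusted p of Pde4b was 0.124.

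Relatives of Serpinb6b were mostly too dim to read. Of 23 clade B serpin genes other than Serpinb6b, 17 were on the array and 5 were tested. There were 0 calls in either knockout against WT (limma), where 0.443% of all tested genes passed in E2A-KO and 0% in HEB-KO cells. At an unadjusted p under 0.05, 2 of 5 were lower and 0 higher in E2A-KO cells, where 13.4% of all tested genes reached it in either direction. In HEB-KO cells 0 of 5 did, where 2.61% of all did in either direction. Serpinb6a, the paralogue that is the close mouse counterpart of human SERPINB6, read 5.38, 5.28, 5.14 and 5.56 on E2A-KO, 6.25 and 6.82 on HEB-KO, and 6.41 and 6.50 on WT arrays. It had HEB-KO arrays on either side of the WT arrays, where those of Serpinb6b lay below. Whether the 2 genes differ in this was not tested. Its difference was -1.11 in E2A-KO (SE 0.23, limma adjusted p = 0.0929) and 0.08 in HEB-KO cells against WT (SE 0.27). Between the knockouts it was -1.19 (limma adjusted p = 0.0946). Serpinb9, a granzyme B inhibitor next to Serpinb6b on chromosome 13, differed by -0.81 in E2A-KO (SE 0.23, limma adjusted p = 0.190) and -0.30 in HEB-KO cells (SE 0.27).

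Proteases that clade B serpins inhibit showed no call, 0 of 7 tested in each knockout against WT (limma). Of all tested genes 0.443% passed in E2A-KO and 0% in HEB-KO cells, so 0 of 7 is near that share. At an unadjusted p under 0.05 there were also 0 of 7, against 13.4% and 2.61% of all tested genes. Ctsl, a lysosomal cysteine protease, differed by -1.04 in E2A-KO cells (SE 0.50, limma adjusted p = 0.407), and Elane, neutrophil elastase, by -0.32 in HEB-KO cells (SE 0.27). Gzma, the granzyme A gene, read 3.56 to 3.85 on E2A-KO, 3.81 and 3.48 on HEB-KO and 3.36 and 3.46 on WT arrays. It lay below the array median on all 8 arrays, as did Ncr1, another NK-cell marker. Of 9 tested apoptosome genes, the partners of Uaca, 0 passed in either knockout against WT (limma), and 1 of 9 in E2A-KO and 0 in HEB-KO cells had an unadjusted p under 0.05, close to the shares of all tested genes (13.4% and 2.61%). That 1 was Apaf1, the scaffold of the apoptosome, at -0.89 in E2A-KO (SE 0.25, limma adjusted p = 0.188) and 0.00 in HEB-KO cells (SE 0.29). Cycs, cytochrome c, differed by 0.44 in E2A-KO cells (SE 0.21). The other per-hexamer repeat genes listed beside Phxr4 (Phxr1, Phxr2 and Phxr5) had no named probe set here.

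**Figure D4:**
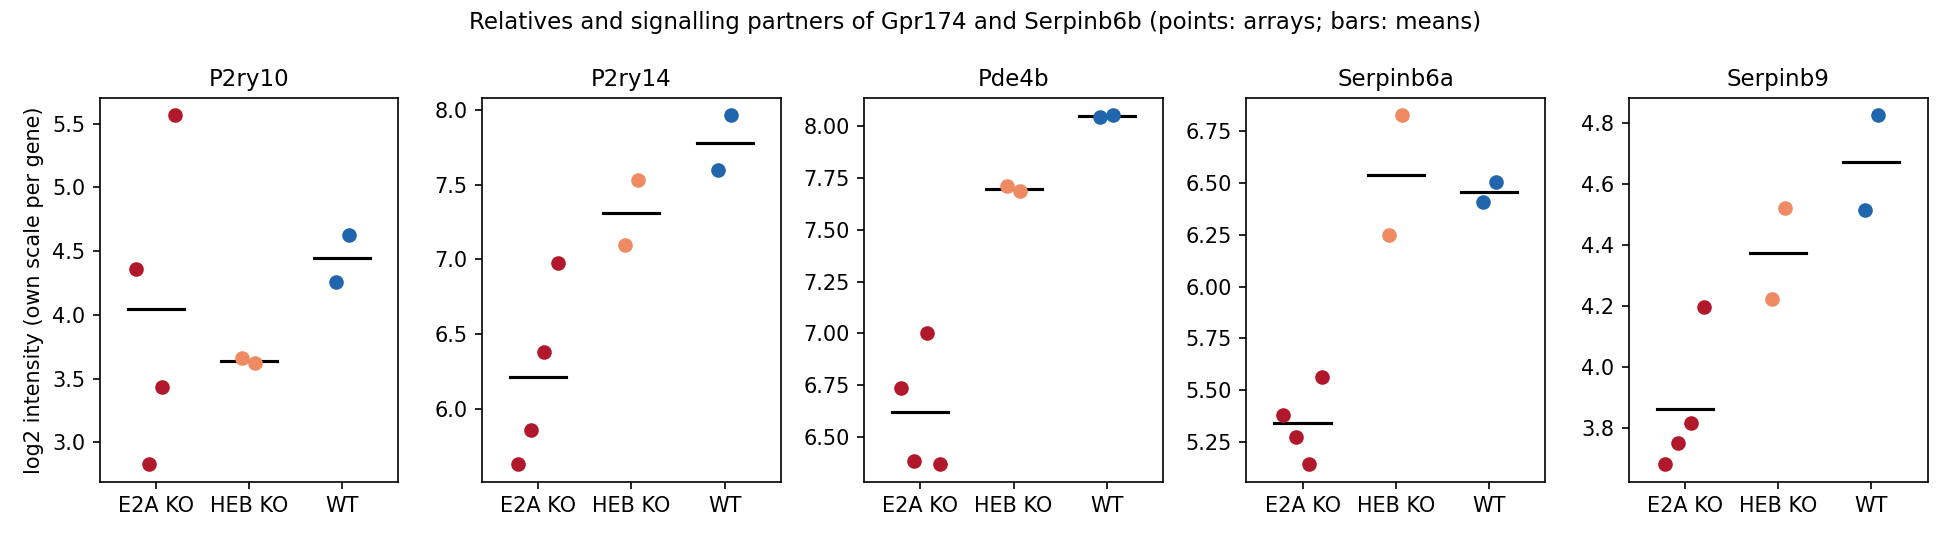
Log2 intensity of 5 relatives and signalling genes by genotype, with 1 point per array and a bar at each mean (each panel has its own vertical scale). P2ry14, Pde4b, Serpinb6a and Serpinb9 are lowest on the E2A-KO arrays, Serpinb6a has HEB-KO points on either side of WT (6.25 and 6.82 against 6.41 and 6.50), and P2ry10 spreads from 2.83 to 5.56 in E2A-KO cells.

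The genes whose pattern over the 8 arrays was most like that of each member were found by Pearson correlation among the tested genes with a full name. The 8 arrays share 3 genotypes, so a high value mostly says that the other gene also separates them. For Gpr174 they were Tmem230 (0.97), Robo4 (0.95), an endothelial and stem-cell receptor, and Prkcq (0.94), the protein kinase C of T-cell receptor signalling. For Serpinb6b they were Nfkbia (0.985), the inhibitor of NF-kappa-B, Wapl (0.982), which releases cohesin, and Alg11 (0.979). For Uaca they were Gimap8 (0.981), a lymphocyte GTPase, Wasf2 (0.977), an actin regulator, and Itpkb (0.971), an inositol trisphosphate kinase. For Phxr4 they were Cdk16 (0.942), Cdcp1 (0.916) and Cbl (0.912), a ubiquitin ligase. The sizes behind such correlations differed widely. Nfkbia, for example, read 10.4 to 10.5 on E2A-KO, 10.8 and 10.6 on HEB-KO and 11.1 and 11.2 on WT arrays, a far smaller spread than that of Serpinb6b.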

How the data were processed

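RNA of 8 sorted cell pools was hybridised to Affymetrix arrays after small-sample labelling with a second round of in vitro transcription, per the labels' protocols. The deposited intensity values were made with RMA by the authors, per the submitters' processing notes, with no version given in the sources. They ran on a linear scale and were converted to log2 with no further normalization. The brightest probe set by mean stood for each gene. Of 18193 genes, 11957 lay above the array median on at least 2 arrays and were tested. All 8 arrays entered one limma fit (3.58.1, under R 4.3.3) on genotype, tested two-sided with Benjamini-Hochberg adjustment. The scripts were tested on simulated data. No set test was run.

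The members, gene lists, alternatives and rule for named genes were chosen with earlier results of these data known. That rule named the members, up to 3 called genes per list (else the 2 with the smallest p), the 3 genes most like each member, the genes beside them in the order of gaps, Tcf3 and Tcf12. P-values rest on the spread among arrays, each from pooled marrow. No arrays were identical.

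The alternatives were no filter or a 75th percentile filter, cyclic loess, median centring, mean or single probe sets, trended and robust eBayes, array weights, only the genotypes compared, a replicate block, the hybridization controls as covariate, and leaving out arrays. Deviations of same-numbered arrays correlated at 0.08 (E2A-KO with HEB-KO), -0.16 (E2A-KO with WT) and -0.28 (HEB-KO with WT) over 11957 genes, so the numbers were not taken to pair them.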

Additional observations from a re-analysis of the deposited data

How the results depend on the processing

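Against WT, all 4 genes were lower in both knockouts in each of the alternatives run (20 for E2A-KO, 21 for HEB-KO), a direction that the choice of genes largely fixes and that says nothing of stability. Differences that moved by more than 1 pooled SD were those of Gpr174 with all probe sets averaged (-1.37 in E2A-KO, -0.74 in HEB-KO), Serpinb6b in HEB-KO without a HEB-KO array (-1.73 and -1.11), and Uaca. For Uaca they were -1.96 in E2A-KO with the hybridization control as covariate, -2.83 and -1.89 in E2A-KO and -1.29 and -0.35 in HEB-KO without WT replicate 1 and 2. Without WT replicate 2 and HEB_KO replicate 1 the values in HEB-KO were -1.77 for Serpinb6b and -0.37 for Uaca, and -1.89 for Uaca in E2A-KO. The cause was not tested. Between the knockouts only Uaca passed in any alternative, with array weights (-1.53, limma adjusted p = 0.0475). Not every alternative tested each gene. Of 20, 15 gave an adjusted p for Gpr174, 18 for Serpinb6b and 19 each for Uaca and Phxr4.

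The number of genes called between E2A-KO and HEB-KO, 14, was 1 with probe sets tested singly, 42 with trend and robust, 91 with array weights, 6 with only these genotypes, 3 with the replicate block, 1 with the hybridization control as covariate and 0 without WT replicate 2 and HEB_KO replicate 1. Leaving out 1 array gave 1 (E2A-KO 1 or either HEB-KO array) to 21 (without E2A-KO 3). The 451 genes with all knockout arrays below WT became 1014 probe sets tested singly and 1739 genes without WT replicate 2 and HEB_KO replicate 1. They were 494 to 1500 without 1 array, where fewer arrays make the rule easier to meet. The replicate block changed the call of none of the 4 genes. Its crossed form for HEB-KO and WT, chosen after seeing the data, gave 0 calls. The Pde4b adjusted p ran from 0.0162 to 0.528. With 2 WT arrays and signals near the floor, small differences in these genes cannot be read.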
